A study of Mus musculus with 18 samples.

Results

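Chimeric reads whose target part lay outside every annotated gene were described in cultured mouse keratinocytes, the cells that build the epidermis. A read was taken where the midpoint of its target part fell in no gene span of the RefSeq table for GRCm38.p6, the assembly also known as mm10, on either strand. The mitochondrial genome was left out. By this rule 83551 of 1066646 reads were members, and they covered 40389 of 809936 distinct target positions. They carried 848 miRNA names and 44791 combinations of position, strand and miRNA. Of the member positions, 87.7% were seen with 1 read. The table held 49997 genes with 1 span each, and 53.9% of the stretch between the first and last gene of the chromosomes lay outside them.

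The libraries came from 2 sets. Set 1 held 6 control libraries of cells that carry K14-Cre alone, a Cre driven by the promoter of a basal keratin, and 3 libraries of miR-200 double knockout (DKO) cells. Set 2 held 3 libraries of miR-200 inducible cells that were not induced, called the set 2 control here, 3 of miR-200 DKO cells, and 3 of inducible cells after 24 hours in 3 ug/ml of doxycycline. All cells were grown in low calcium medium, 1 dish for each library. The alleles of the DKO, the transgene of the inducible cells and the number of clones or animals are not given in the sources used here. The control of set 1 and that of set 2 are different cells, so the DKO was compared only within its own set. The libraries of a group were pooled in 1 deposited file with no library name. Each group was therefore 1 pooled sample, no test between groups could be made, and all intervals below cover counting error only.

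In CLEAR-CLIP, light fixes Argonaute 2 to the RNA it holds, and the miRNA inside Argonaute is then ligated to the target RNA beside it, so that 1 read names both. A miRNA finds most targets through its seed, bases 2 to 8 from its 5′ end, which pairs with a complementary run in the target, mostly in the 3′ parts of mRNAs. The miR-200 family, abundant in epithelial cells, holds miR-200a and miR-141 with one seed, called the miR-200a seed here, and miR-200b, miR-200c and miR-429 with another, the miR-200b seed. The share of a miRNA among chimeric reads is a measure of ligated pairs, and fewer cells, fewer miRNA molecules or less target RNA cannot be told apart in it.

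The mature miRNAs that led the reads outside genes and were found in the RefSeq sequences for GRCm38.p6 are shown 5′ to 3′ with the seed in capitals, since the sites described below are grouped by it. Of the 848 names, 691 were found there, and these hold 63.5% of the member reads.
miR-200a-3p: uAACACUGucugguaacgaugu
miR-141-3p: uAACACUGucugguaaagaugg
miR-200b-3p: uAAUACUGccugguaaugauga
miR-200c-3p: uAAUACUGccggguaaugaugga
miR-429-3p: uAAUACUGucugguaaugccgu
miR-21a-5p: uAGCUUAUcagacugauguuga
miR-31-5p: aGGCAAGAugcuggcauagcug
miR-29a-3p: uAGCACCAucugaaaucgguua
miR-706: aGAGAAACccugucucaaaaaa
miR-27a-3p: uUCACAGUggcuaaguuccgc
miR-23a-3p: aUCACAUUgccagggauuucc
miR-125b-5p: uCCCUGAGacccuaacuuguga
miR-125a-5p: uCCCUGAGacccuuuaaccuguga
miR-690: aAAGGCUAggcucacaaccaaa
miR-7a-5p: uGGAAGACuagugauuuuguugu
miR-193a-3p: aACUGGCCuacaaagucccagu
The pair of miR-125 names shares 1 seed, as do the members within each miR-200 group.

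Target parts themselves could be read where they fell in the 300-base windows around gene starts that RefSeq sequences cover. There 218 member combinations lay near the starts of 177 genes, 142 of them on the strand of the gene, and 199 had a miRNA with a known mature sequence. The exact complement of seed bases 2 to 8 stood in the target part of 22 of these 199 combinations, which is 11.1% (7.06 to 16.3, exact Clopper-Pearson 95% interval). On the opposite strand of the same target parts it stood in 0 of 199. Over all windows of the same lengths along the promoter sequences, 0.27% held it. With seed bases 2 to 7 the shares were 18.1% of the target parts and 0.986% of all windows, with 1 of 199 on the opposite strand. The match is a description of letters in the target part and not a measured site. The target parts ended on G in 64.2% of cases (57.4 to 70.6), and the base before them was G in 53.5%, where G makes up 27.3% of the promoter bases. RNase T1, used in the digestion together with RNase A, cuts after G.

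Target parts wholly outside genes with a full match are shown 5′ to 3′ in the orientation of the RNA, with the complement of seed bases 2 to 8 in capitals, to show where the run stands in the target part. Of 19 such target parts, 13 lay on the strand of the gene and 6 on the other strand. The 6 shown are examples picked from the 13, each within 250 bases before the annotated start of the gene named.
Commd6 with miR-31-5p, chr14:101640646-101640683, minus strand: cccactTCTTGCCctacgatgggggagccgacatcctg
Fscn3 with let-7d-5p, chr6:28427695-28427740, plus strand: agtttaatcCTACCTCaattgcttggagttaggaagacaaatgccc
Fscn3 with let-7f-5p, chr6:28427689-28427715, plus strand: atttccagtttaatcCTACCTCaattg
Rnf43 with miR-16-5p, chr11:87662849-87662896, plus strand: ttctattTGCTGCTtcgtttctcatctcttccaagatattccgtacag
Dusp6 with miR-19a-3p, chr10:99263046-99263097, plus strand: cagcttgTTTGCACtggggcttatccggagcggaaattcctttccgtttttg
Sprr2k with miR-29a-3p, chr3:92432550-92432569, plus strand: tcttataaaaTGGTGCTtag
Each target part shown rests on 1 read, except that of Sprr2k with 2. The Commd6 stretch was joined to miR-31-5p at 3 positions, seen in the set 2 control and the set 2 induced pool. Fscn3 was joined to a let-7 member once in the set 1 control and once in the set 2 induced pool. Sprr2k, of a family that codes for proteins of the cornified envelope, was joined to miR-29a-3p in 2 pools. Searched on both strands of all promoters, CTACCTC stood in 3.87%, TCTTGCC in 4.63%, TTTGCAC in 3.19%, TGCTGCT in 8.43% and TGGTGCT in 5.08%.

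The share of reads outside genes differed between the sets. It was 12.9% (12.7 to 13) in the set 1 control and 13.5% (13.2 to 13.8) in the set 1 DKO, against 6.86% (6.76 to 6.95) in the set 2 control, 6.65% (6.54 to 6.76) in the set 2 DKO and 6.38% (6.3 to 6.46) in the set 2 induced pool. Both set 1 pools were above all 3 set 2 pools, and the DKO differed from its control by less than 1 percentage point in either set. The order of the set 1 pools depended on reads that recurred within a sequencing lane, described below. Without them the set 1 control stood at 12.1% and the set 1 DKO at 10.7%. The member reads numbered 20388, 6326, 19596, 12904 and 24337 in that order. A floor of 3 reads corresponds to 0.0147% of them in the set 1 control and 0.0474% in the set 1 DKO.

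A single name, miR-709, moved with the difference between the sets. Without it the shares outside genes were 8.4%, 8.48%, 6.49%, 6.3% and 6.02%. With each combination of position, strand and miRNA counted once, they were 7.21%, 8.3%, 5.19%, 5.06% and 4.81%. The same combination was read 2.44 and 2.06 times on average outside genes in set 1, and 1.46 to 1.51 times in set 2, while within genes the averages were 1.09 to 1.28 in the 5 pools. The set coincides with the sequencing run, so the sets cannot be told apart from their runs.

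As a check of the material, the 8 keratinocyte genes on a marker list (Krt5, Krt14, Trp63, Itga6, Itgb4, Col17a1, Dsg3 and Perp) all had target reads in every pool, 0.317% to 0.61% of the reads within genes. Of the fibroblast list 0 or 1 of 5 genes had reads, of the immune list 0 or 1 of 4, of the endothelial list 1 or 2 of 3 and of the melanocyte list 2 or 3 of 4, each list with at most 0.0149% of the reads within genes. Some reads recurred in a second pool of their set with an identical barcode, miRNA, strand and position. Recurrence was counted between the pools of a set, which is called the sequencing lane here. They made up 10.6%, 34.2%, 15.2%, 18.3% and 13.6% of the reads outside genes and 4.34%, 14.7%, 6.14%, 7.21% and 5.24% of those within, in the order set 1 control, set 1 DKO, set 2 control, set 2 DKO and set 2 induced. The shares of reads outside genes, the ratios of the whole miR-200 family and some counts were recomputed without them. Values of single bins, sites, genes and other miRNAs include them. In the fullest bin, described below, 37.6% of the reads were shared in this way.

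Outside genes, 10 miRNAs that led by mean share over the pools held 66.5%, 64.2%, 48.5%, 49.9% and 48.6% of the reads. These names were chosen for that share, and the 10 that led within genes held 37.9%, 41%, 37%, 43.1% and 35.9% of the reads there. By the mean over pools miR-709 was first, but it led only in the 2 set 1 pools, while miR-31-5p led in the set 2 control and the set 2 induced pool and miR-5099 in the set 2 DKO. miR-709 held 43% and 45.3% of the reads outside genes in set 1 and 6.41%, 6.25% and 6.72% in set 2. Within genes its shares were 8.14% and 7.95% in set 1 and 0.802%, 0.668% and 0.731% in set 2. Of all its 35739 reads, 15325 lay outside genes, or 42.9%. The second, miR-5099, held 12%, 5.18%, 6.96%, 14% and 7.1% of the reads outside genes and lay almost nowhere else, with 7674 of its 7690 reads among the members.

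Of the other leading miRNAs, miR-125b-5p, miR-31-5p, miR-23a-3p, miR-21a-5p and miR-27a-3p took smaller shares outside genes than within in all 5 pools. miR-31-5p, known to act in keratinocyte growth, held 1.92% and 2.02% outside in set 1 and 7.4%, 5.79% and 8.2% in set 2, against 4.33%, 5.34%, 11.7%, 8.34% and 11.8% within. miR-21a-5p held 0.75%, 1.15%, 5.58%, 5.38% and 5.14% outside, in each pool less than its 2.26%, 2.91%, 6.35%, 6.58% and 6.02% within. For miR-27a-3p the share outside was 0.264 to 0.688 times that within, and for miR-23a-3p, made from the same primary transcript, 0.355 to 0.913 times. miR-125b-5p stood at 0.372 and 0.48 times in set 1 but at 0.839 to 0.983 times in set 2, so that it was nearly evenly spread in that set. miR-706 went from 4.91% and 5.49% outside in set 1 to 1.3%, 2.32% and 1.74% in set 2, close to its 4.9% and 4.49% within genes in set 1 and above its 0.459%, 0.679% and 0.563% in set 2. miR-125a-5p was above its share within genes in all 5 pools, by 1.67 to 3.19 times, most of it in 1 bin described below. Without that bin its share outside was below that within in all 5 pools, at 0.417, 0.573, 0.884, 0.689 and 0.792 times, though in the set 2 control the interval of 0.745 to 1.04 included 1.

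**Figure D1:**
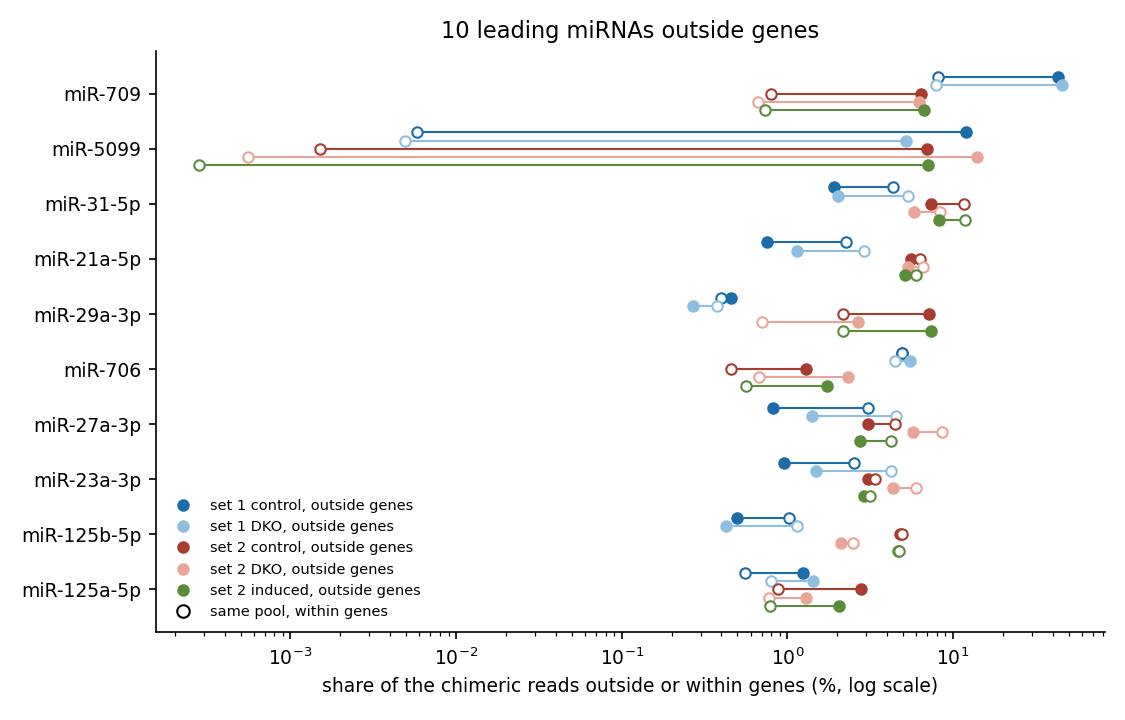
Share of the chimeric reads (%, log scale) held by the 10 leading miRNAs, with filled points for reads outside genes and open points for reads within genes of the same pool, joined by a line. miR-709 and miR-5099 lie far to the right outside genes in all 5 pools, while miR-21a-5p, miR-31-5p, miR-23a-3p and miR-27a-3p lie to the left of their share within genes.

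A miRNA was counted as higher or lower outside genes where the ratio of its shares was past 2-fold, with a conditional exact interval that excluded 1, in the same direction in all 5 pools. Of 191 miRNAs with at least 20 member reads, 5 were higher by this rule, 2.62%, and 0 were lower (0%). The minimum was set on reads outside genes alone, so miRNAs sparse there could drop out, which limits the count of lower names. miR-5099, miR-712-5p and miR-712-3p, with 16, 2 and 3 reads within genes, passed it only through the side where they were high. The 5 were miR-709, miR-5099, miR-690, miR-712-5p and miR-712-3p. miR-709 stood 5.28 and 5.7 times higher outside genes in set 1 and 7.99, 9.35 and 9.19 times in set 2. miR-690 stood 5.64, 5.33, 6.69, 14 and 9.61 times higher, with 44.2% of its 1605 reads outside genes. Without its fullest bin, near Snrpc, miR-690 stood 1.51 (1.22 to 1.85) and 1.79 (1.23 to 2.55) times higher in set 1, short of 2-fold, and 2.84, 6.85 and 2.66 times in set 2, so that it would not be counted. miR-712-5p had 720 of 722 reads and miR-712-3p 207 of 210 reads outside genes. miR-5099 and both miR-712 arms thus had under 2% of their reads within genes, while miR-709 and miR-690 had over 50% there. By pool, 1 bin held 99.8% to 100% of the reads of miR-5099 outside genes. Another held 99.5% to 100% of those of miR-712-5p and, over the pools, 206 of the 207 of miR-712-3p. The miR-5099 call thus rests on 1 bin, and both miR-712 calls rest on the other.

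The reads outside genes gathered in few places. Cut into bins of 100 bases by the midpoint, they occupied 29143 bins, of which 23388 held a single read. A bin was called crowded with at least 20 reads over the 5 pools. The 184 crowded bins held 51.5% of all member reads, 62.6% and 60.2% in set 1 and 48.4%, 45% and 45.8% in set 2. Ranked within a pool, 18 bins held 50% of the reads in the set 1 control and 22 in the set 1 DKO, while 206, 351 and 350 bins were needed in set 2. In each of the 184 crowded bins all reads lay on 1 strand, and 110 of them had reads in all 5 pools.

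**Figure D2:**
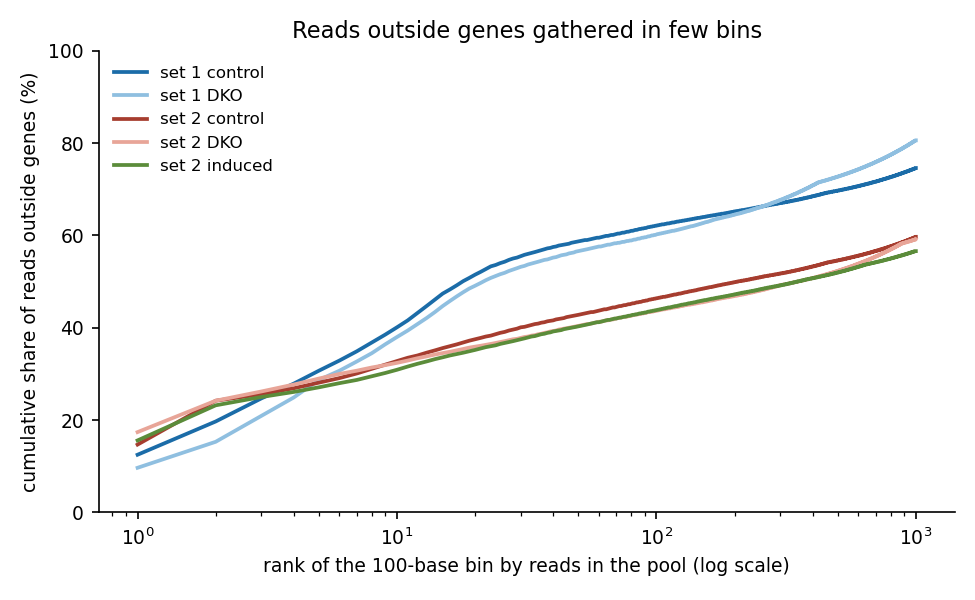
Cumulative share (%) of a pool's reads outside genes against the rank of its 100-base bins by reads (log scale), 1 line for each pool. The 2 set 1 lines lie above the 3 set 2 lines from 10 bins on and reach 50% at 18 and 22 bins, against 206 to 351 bins in set 2.

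Bins were also compared between the sets, which ran on different flow cells. Set 1 reads fell in 7730 bins and set 2 reads in 22746, and 1333 bins had both. These were 17.2% of the set 1 bins and 5.86% of the set 2 bins, and they held 48042 reads, 57.5% of the members. Of the 184 crowded bins, 167 had reads of both sets.

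Crowded bins differed in how many miRNAs they held. In 80 of them 1 miRNA made up at least 90% of the reads, and these bins held 16727 reads. The name was miR-709 in 42 of the 80. In 38 others at least 20 miRNAs met, with 22669 reads, and the other 66 lay between, with 3611 reads. Bins of 1 miRNA took 43.9% and 46.1% of the member reads in set 1 but 8.6%, 7.6% and 8.99% in set 2. Bins of many miRNAs took 15.7% and 11.2% in set 1 and 35.2%, 32% and 31.9% in set 2. A single bin, described next, held 11813 of their 22669 reads. Without it they took 3.21%, 5.64%, 20.4%, 14.6% and 16.3%.

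The fullest bin, chr17:39843001-39843100 on the plus strand, held 11813 reads. It lies 3322 bases from Rn18s-rs5, a pseudogene named for 18S ribosomal RNA whose strand the tables do not give. Reads in it numbered 2541 and 349 in set 1 and 2886, 2243 and 3794 in set 2, which is 12.5%, 5.52%, 14.7%, 17.4% and 15.6% of the reads outside genes. miR-5099 led with 7667 reads, nearly all that this name had in the series. The next were miR-29a-3p with 2795, miR-29b-3p with 1006 and miR-29c-3p with 169 reads, and 67 names were seen in all. The miR-29 family is known for its targets among collagens and other matrix genes.

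The miR-5099 and miR-29 reads overlapped but did not start together. The commonest target part of miR-5099 ran from 39843015 to 39843070, with 1053 reads, and that of miR-29a-3p, miR-29b-3p and miR-29c-3p from 39842999 to 39843052, with 332, 218 and 41 reads. The pools differed in the mix. In set 1, miR-5099 had 2442 and 328 reads there and miR-29a-3p 60 and 11. In set 2, miR-5099 had 1360, 1811 and 1726 and miR-29a-3p 1063, 263 and 1398, so miR-29a-3p was lowest against miR-5099 in the DKO pool of that set. The bin held 64.5% to 77.7% of the reads that miR-29a-3p had outside genes in each pool. Without the bin, miR-29a-3p held 0.162% and 0.0948% of the reads outside genes in set 1 and 1.75%, 0.62% and 1.65% in set 2.

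Between this bin and Rn18s-rs5, another 589 member reads with 113 miRNA names lay in 30 bins, all on the plus strand. They numbered 39 and 6 in set 1 and 164, 151 and 229 in set 2. In the 5 kb after the gene span there were 0 member reads.

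The next bin, chr16:17222401-17222500 on the plus strand, held 5024 reads with 204 miRNA names, the most names of the bins described here. It lies 8424 bases from Rimbp3. The reads numbered 345 and 101 in set 1 and 1852, 879 and 1847 in set 2. The leading name was miR-125a-5p with 1106 reads, and miR-125b-5p, of the same seed, followed with 383, then miR-21a-5p with 325 and miR-31-5p with 229. The bin held 205 of the 252 member reads of miR-125a-5p in the set 1 control and 58.7% to 81.3% of them over the pools. The miR-200 family had 218 reads in it.

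Bins led by miR-709 had few other names. The bin chr12:119325101-119325200, 1069 bases from the lncRNA gene Gm46331, held 1621 reads and 98.1% of them were miR-709. The reads numbered 558 and 358 in set 1 and 256, 191 and 258 in set 2. There a single miR-709 position was read with all 256 barcodes that 4 bases can give in the set 1 control. Since no copy with the same barcode is kept, reads at such a position cannot rise further, and recurrence in another pool of the lane follows from the full set of barcodes. Outside genes, 9 of 49473 combinations counted by pool had at least 200 barcodes.

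Similar bins near Gm8392 (1517 reads), Parp14 (1278), Gm4810 (722), Gm7724 (564) and Gap43 (551) were 96.7% to 99.7% miR-709. Each had more reads in the set 1 control than in any other pool, from 320 at Gm7724 to 1019 at Gm8392. In all, 45 crowded bins were led by miR-709, and 94.9% of its reads outside genes lay in crowded bins.

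Both arms of miR-712 met in 1 bin. At chr17:36231401-36231500 on the minus strand, 1157 bases from the pseudogene Gm18604, lay 925 reads with 719 of miR-712-5p and 206 of miR-712-3p and no other name. The reads numbered 300 and 67 in set 1 and 113, 262 and 183 in set 2. No miRNA hairpin of the sequence table lay within 1 kb of it, but that table holds neither arm of miR-712. The check therefore cannot show whether the bin lies at the miR-712 gene itself. miR-690 was led by a bin 1140 bases from Snrpc, a component of the U1 splicing particle, with 516 reads, 96.1% of them miR-690, a bin named here after its values were seen.

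Other bins gathered many miRNAs with no name above 16.7% of the reads. The bin nearest Apbb1ip held 619 reads with 96 names, led by miR-125b-5p with 87 reads. The bin 7392 bases after the end of Tra2a, a splicing regulator, held 549 reads with 92 names, led by miR-27a-3p with 55. The bin 5557 bases before Cd209a, a lectin of myeloid cells, held 473 reads with 86 names, led by miR-21a-5p with 79. All 3 were sparse in set 1, with 15 to 28 reads in the control pool near Apbb1ip and Tra2a and 4 near Cd209a, and had 172 to 259 in the set 2 control and the set 2 induced pool. The bin 2801 bases from Chrac1, a histone-fold gene, lay apart from these, since 68 of its 134 reads were miR-103-3p and 8 its relative miR-107-3p.

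**Figure D3:**
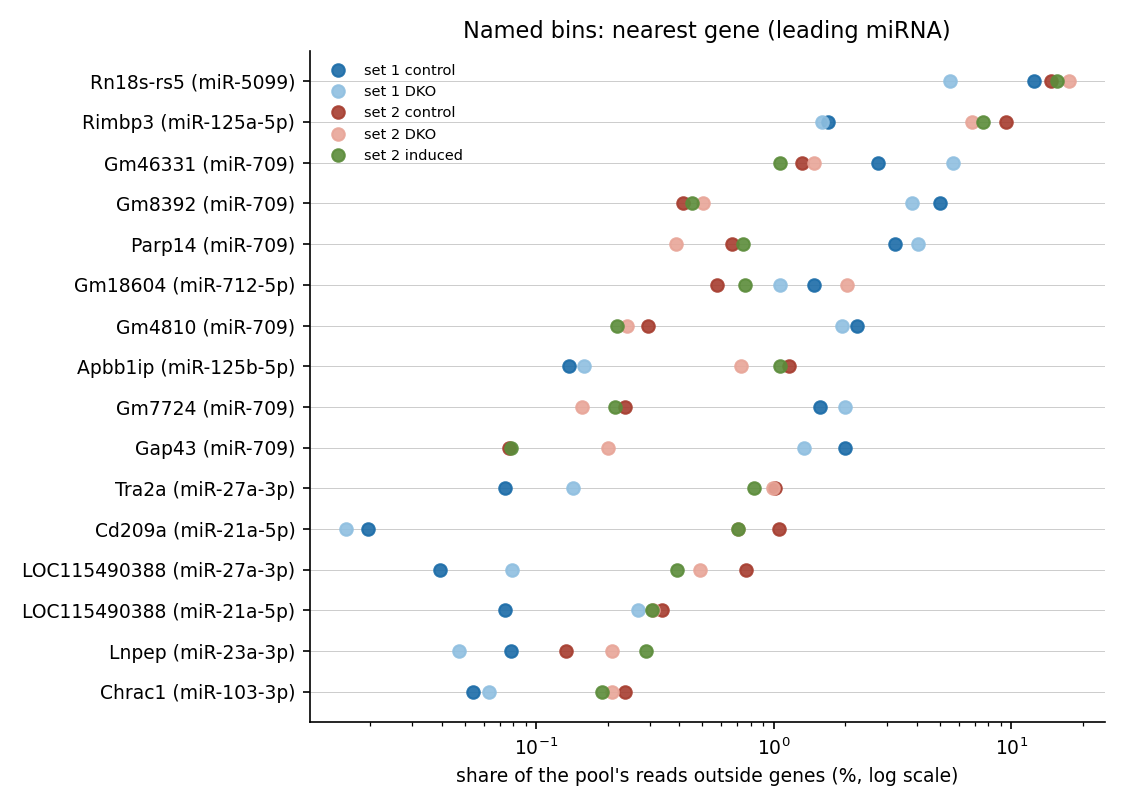
Share of a pool's reads outside genes (%, log scale) held by each of 16 named bins, labelled by the nearest gene and the leading miRNA, 1 point for each pool. Bins led by miR-709 have their 2 set 1 points on the right, while the bins near Rimbp3, Apbb1ip, Tra2a and Cd209a, with many miRNAs, have them on the left.

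About as many targets outside genes lay within 5 kb of a gene as beyond. Counting each combination once in each pool, 18.3% were under 1 kb from the nearest gene, 32.7% from 1 to 5 kb, 17.8% from 5 to 10 kb, 20.8% from 10 to 50 kb and 10.4% over 50 kb, with a median of 4728 bases. The medians by pool were 4985, 5724, 5007, 4680 and 4139 bases. The share within 5 kb was 50.1%, 45.2%, 50%, 51.3% and 53.2% in the same order, where 18.1% of the stretch outside genes, between the first and last gene of the chromosomes, lay that near. The nearest gene was protein coding for 55.8%, a pseudogene for 19.5% and an lncRNA gene for 18%.

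Where the strand of the nearest gene was given, targets within 5 kb lay chiefly after the 3′ end and on the strand of the gene. Strands were given for 28097 genes, and for these the deposited strand of a target within a gene was that of the gene for 97.9% of combinations. Of 16114 combinations within 5 kb, 10010 lay after the end on the same strand, or 62.1% (61.4 to 62.9). After the end on the other strand lay 12.8%, before the start on the same strand 13.2% and before the start on the other strand 11.8%. The share after the end on the same strand was 55.5% and 51.6% in set 1 and 64.1%, 63.3% and 65.1% in set 2, so that it was the largest of the 4 classes in each pool. Over reads in place of combinations it was 42.5% and 35% in set 1 and 60.5%, 59.5% and 61.9% in set 2.

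The number of such targets fell with distance from the end. It was 1240 combinations in the first 250 bases, 973 in the next and 693 by the end of the first kb, and 180 in the window that ends at 5 kb. Before the start on the same strand the same windows held 232, 142, 115 and 58. Single bins stand out in the profile, with 493 combinations after the end in the window of the Tra2a bin and 368 before the start in that of the Cd209a bin.

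**Figure D4:**
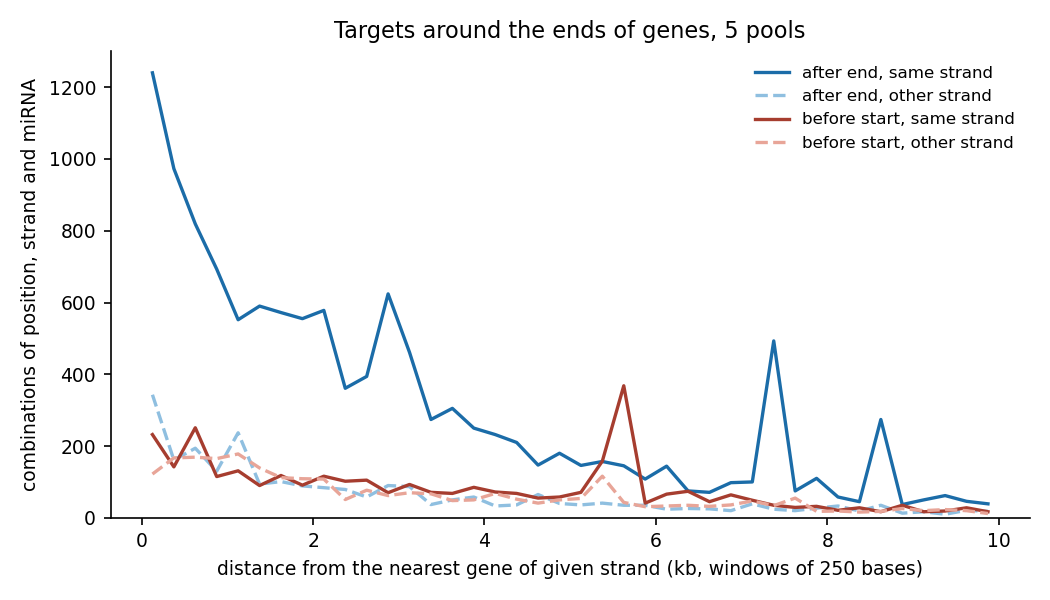
Number of combinations of position, strand and miRNA (5 pools, each pool counted) in windows of 250 bases against the distance from the nearest gene of given strand in kb, with 1 line for each side and strand. The line after the end on the same strand starts at 1240 and falls to 180 at 5 kb, above the other 3 lines over that range, and single peaks mark crowded bins.

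Targets after a gene's end on its strand, within 5 kb, were found for 3488 genes. A target can lie after the ends of several genes and was then counted for each, as were 388 of 11584 combinations (3.35%). At least 10 combinations were counted for 170 of them, of which 135 were protein coding and 67 had some in all 5 pools. The most lay after the lncRNA gene LOC115490388, with 497 combinations of 102 miRNAs, between 2269 and 3147 bases after its end. They numbered 21 and 24 in set 1 and 196, 98 and 158 in set 2. The leading names were miR-21a-5p with 53, miR-31-5p with 41 and miR-27a-3p with 37, and 2 of the bins with the most positions lay there.

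Lnpep, which codes for a cell-surface aminopeptidase, had 451 combinations of 83 miRNAs after its end, against 318 within its span. They numbered 44 and 13 in set 1 and 120, 97 and 177 in set 2. Different miRNAs kept to different places there. miR-23a-3p had 69, of which 56 lay in the 100 bases from 2100 after the end, together with 30 of the 33 of miR-23b-3p and 22 of the 35 of miR-27a-3p. miR-141-3p had 47, of which 39 lay in the 100 bases from 3500, and they numbered 5 and 0 in set 1 and 13, 2 and 27 in set 2.

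Oip5os1, an lncRNA gene also called Cyrano and known for a site that pairs extensively with miR-7, had 180 combinations after its end in the table and 50 within its span. miR-7a-5p led with 25, of which 16 lay in the 100 bases from 1400 after the end, and its nearest lay at 1388. These 25 numbered 4 and 4 in set 1 and 11, 1 and 5 in set 2. Next came miR-92a-3p with 19 and miR-205-5p, an epithelial miRNA, with 14, of which 9 were in the set 2 DKO.

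Alg10b, a glucosyltransferase of N-glycan assembly, had 172 combinations after its end and 70 within its span. The leading names were miR-200b-3p with 23, miR-200c-3p with 21 and miR-429-3p with 14, which share 1 seed, and 20, 20 and 13 of them lay in the 100 bases from 300 after the end. C1galt1, the core 1 synthase of O-glycans, had 113, led by miR-193a-3p with 20, of which 19 lay in the 100 bases from 1500. Ern1, a sensor of unfolded protein in the endoplasmic reticulum, had 93, led by miR-205-5p with 13.

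The rest of the 10 genes with the most were Gm9936 with 91, Appbp2 with 89, Blcap with 88 and Nhlrc3 with 79. Gm9936 had 60 names among its 91 combinations and no name above 5. The next 4 genes were named after their values were seen. Il6ra, the receptor of interleukin 6, had 62, of which 46 were miR-320-3p and all 46 lay between 1752 and 1775 bases after the end. Ddi2 also had 62, which Rsc1a1 shares, and 38 of them were miR-320-3p, between 2740 and 2758 bases after the end. Egfr, the receptor of epidermal growth factor, had 58 after its end and 358 within, with 9 of miR-29a-3p and 7 of miR-29b-3p between 4155 and 4178. Sdc1, a syndecan of epithelial cells, had 70 after its end and 1186 within.

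The miR-200 family checked the labels of the DKO and of induction outside genes. It held 226 of 20388 reads outside genes in the set 1 control, 1.11% (0.969 to 1.26), and 7 of 6326 in the set 1 DKO, 0.111% (0.0445 to 0.228). In set 2 it held 927 reads, 4.73% (4.44 to 5.04), in the control, 31 reads, 0.24% (0.163 to 0.341), in the DKO and 1579 reads, 6.49% (6.18 to 6.8), in the induced pool. Both DKO pools were far below their controls. The ratio of shares, DKO over control, was 0.0998 (0.0397 to 0.209) in set 1 and 0.0508 (0.0343 to 0.0726) in set 2. Within genes the ratios were 0.0462 (0.0356 to 0.0589) and 0.053 (0.0491 to 0.0572).

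Of the 31 family reads of the set 2 DKO outside genes, 28 recurred with an identical barcode and position in another pool of the lane, and 3 did not. Within genes 629 of 694 family reads of the set 2 DKO were shared in this way, against 5.23% of those of the set 2 control. In set 1 the shared reads were 1 of 7 outside genes and 49 of 65 within (75.4%) for the DKO, against 1.02% within genes for the control. Without such reads the set 1 ratio was 0.117 (0.0424 to 0.258) outside genes and 0.0129 (0.00736 to 0.0209) within, so that the intervals no longer overlapped, with 6 and 16 DKO reads behind them. In set 2 it was 0.0054 (0.00111 to 0.0158) outside and 0.0053 (0.00409 to 0.00676) within. Their part in the remaining DKO signal was not tested beyond this.

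In the induced pool the family share outside genes was 1.37 times that of the control (1.26 to 1.49), and 1.35 times within genes. The members did not move alike. miR-200b-3p stood at 2.97 times (2.4 to 3.69), miR-200a-3p at 2.73 times (1.89 to 4.04) and miR-429-3p at 2.12 times, which are the members made from 1 primary transcript. miR-200c-3p stood at 1.01 times (0.877 to 1.18) and miR-141-3p at 0.967 times, which come from another. By seed, the group of the miR-200b seed stood at 1.58 times (1.42 to 1.76) and the miR-200a seed at 1.13 times (0.992 to 1.28).

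**Figure D5:**
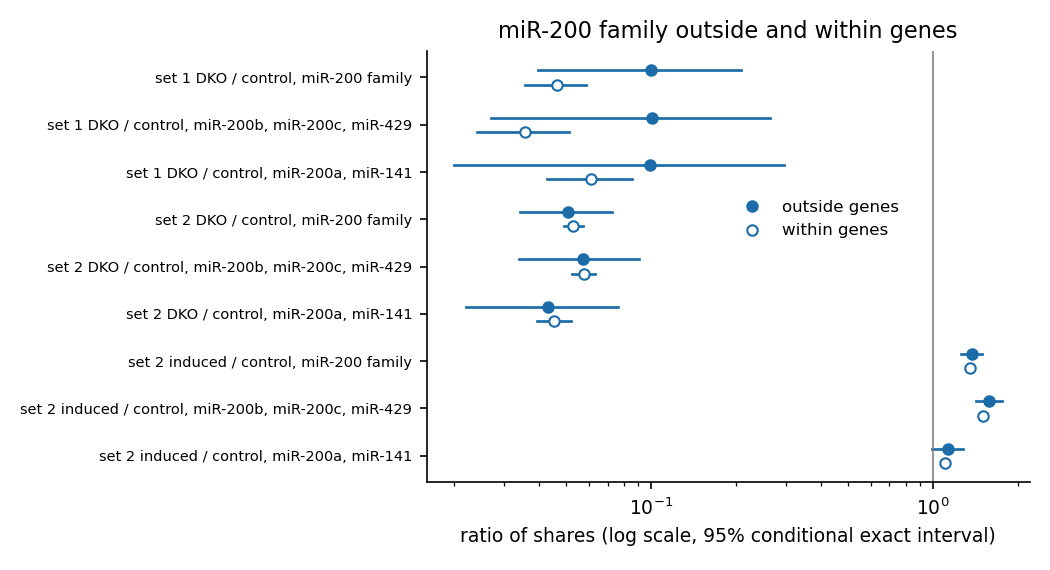
Ratio of the share of reads (log scale, bars are 95% conditional exact intervals) for the miR-200 family and its 2 seed groups, DKO over control in each set and induced over control in set 2, filled outside genes and open within genes. The DKO ratios outside genes lie between 0.0432 and 0.101 and the induced ratios between 1.13 and 1.58, and each interval overlaps that within genes with all reads kept. Without reads shared within the lane the set 1 intervals of the whole family do not overlap.

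The family's targets outside genes made up 1762 sites of overlapping combinations, 2433 combinations in all. At least 5 combinations were counted at 33 sites, and 25 of these had none in either DKO pool. The DKO pools held only 7 and 31 family reads outside genes, so few of the 1762 sites could have any there. The 33 were also picked by combinations that came mostly from the control and induced pools. The count of 25 was therefore largely set by these choices. Only 1 seed group was seen at 17 of the 33, with 14 for the miR-200b seed and 3 for the miR-200a seed, and 16 had both. The site after Alg10b, chr15:90230878-90230970 on the plus strand, had 53 combinations, all of the miR-200b seed, with 1 and 0 in set 1 and 14, 2 and 36 in set 2. The site after Lnpep, chr17:17524146-17524228 on the minus strand, had 48, all of the miR-200a seed, with 4 and 0 in set 1 and 11, 3 and 30 in set 2. At the bin near Rimbp3, where 204 names met, both seeds were seen, with 47 and 38 combinations. A site 284 bases after Bmpr2, a receptor of bone morphogenetic proteins, had 12, all of the miR-200b seed.

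Over all miRNAs, the miR-200 family included, names that differed between the DKO and its control outside genes were counted. With at least 20 reads in the compared pools, 22 of 90 miRNAs were higher in the set 1 DKO past 2-fold with an interval that excluded 1, 24.4%, and 8 were lower, 8.89%. Within genes 34 of 537 were higher, 6.33%, and 80 lower, 14.9%. In set 2, 17 of 135 were higher in the DKO, 12.6%, and 20 lower, 14.8%, against 10% and 11.7% within genes. Without reads shared within the lane 34 miRNAs were higher in the set 1 DKO, and with a minimum of 50 reads 8 were higher there and 9 in the set 2 DKO. Of 79 miRNAs with enough reads in both sets, 2 were higher in both, miR-27b-3p and miR-93-5p. Another 4 were lower in both, and 5 stood on opposite sides. miR-27b-3p stood at 2.08 times in set 1 and 2.77 times in set 2, and miR-93-5p at 3.22 and 2.38 times. The 4 lower in both were miR-200b-3p, miR-200c-3p, miR-141-3p and miR-29b-3p. For miR-29b-3p the set 1 ratio was 0.358 (0.0926 to 0.999) from 4 DKO and 36 control reads, 1 and 24 of them in the bin near Rn18s-rs5. Without that bin it was 0.806 (0.146 to 2.99), no longer called, and 0.55 (0.405 to 0.737) in set 2, short of 2-fold.

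In set 1, miR-467c-5p stood at 18.6 times, miR-467e-5p at 16.8 times and miR-669a-5p at 8.2 times. These ratios were not recomputed without a crowded bin or without reads shared within the lane. In a crowded bin of 397 reads, miR-467c-5p led with 87. Over all its names the bin had 14 reads in the set 1 control and 117 in the set 1 DKO. How far the ratios rest on single positions was not tested. miR-203-3p, known to hold back the stem-like state of basal keratinocytes, stood at 2.95 times in set 1. In set 2, miR-205-5p stood at 2.06 times, miR-24-3p at 2.08 times and miR-181b-5p at 5.77 times, while miR-29a-3p stood at 0.371 times, miR-125b-5p at 0.441 times and miR-193a-3p at 0.28 times. Within genes miR-29a-3p stood at 0.326 times and miR-125b-5p at 0.511 times, close to the ratios outside.

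Induction moved few names outside genes. Of 147 miRNAs, 3 were higher in the induced pool, 2.04%, and these were miR-200a-3p, miR-200b-3p and miR-429-3p. Within genes the shares were 2.68% higher and 1.95% lower. Outside genes another 3 were lower, also 2.04%, namely miR-423-5p at 0.403 times, miR-674-5p at 0.403 times and miR-151-3p at 0.494 times. miR-709 stood at 1.05 times and miR-5099 at 1.02 times.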

How the data were processed

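Argonaute 2 CLEAR-CLIP was done on 18 libraries of cultured mouse keratinocytes. The build was mm10, and the tools named in the submitters' processing notes, without versions, are bedtools, cutadapt and Novoalign. In the deposited files an entry is 1 chimeric read, with positions in place of counts or signals, and the authors pooled the libraries of each group in 1 file. No 2 entries share position, strand, miRNA and a 4-base barcode. Starts in the files count from 0, and coordinates here count from 1.

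The midpoint of each target part was set against the gene spans of RefSeq GRCm38.p6 with Python 3.11.15, pandas 2.3.3, NumPy 2.4.6 and SciPy 1.17.1. Gene strands came from the RefSeq promoter and miRNA tables and cover 56.2% of genes. No genome was used here. The pools held 161692, 48662, 314071, 210003 and 419117 reads, in the order set 1 control, set 1 DKO, set 2 control, set 2 DKO and set 2 induced. Shares have exact Clopper-Pearson 95% intervals and ratios of shares conditional exact ones, and both cover counting error only. The placement of positions and the calls were tested on simulated data.

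Named were the 5 miR-200 members, the 10 other miRNAs of highest mean share outside genes, up to 5 in each direction with the largest outside to within ratio, the 12 bins with the most reads and the 8 with the most positions in all 5 pools, with their nearest genes, and the 10 genes with the most combinations after their end. Of these bins, 1 is not reported here. The members and lists were chosen with earlier results of these data known. Of the 2 sets, only set 1 has read names with a mark, which were kept.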

Additional observations from a re-analysis of the deposited data

Results flagged for a closer look

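Between the sets, 5 miRNAs stood past 2-fold on opposite sides of 1 in the DKO over its control outside genes, with intervals that excluded 1. The difference between the sets was not tested, since each pool is 1 sample. miR-5099 stood at 0.433 times (0.384 to 0.486) in set 1 and at 2.02 times (1.88 to 2.17) in set 2, nearly all of it in the bin near Rn18s-rs5. miR-669o-3p stood at 6.28 times (3.58 to 11.4) and 0.478 times (0.334 to 0.672). miR-467d-3p stood at 5.73 times (2.38 to 14.7) and 0.442 times (0.236 to 0.782). miR-297a-5p stood at 5.01 times (2.02 to 13.1) and 0.403 times (0.239 to 0.65). miR-466g stood at 3.44 times (1.59 to 7.47) and 0.32 times (0.0791 to 0.962).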

How the results depend on the processing

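No paired analysis was possible because each deposited file merges the libraries of a group without naming them, and for the same reason no replicate could be left out. Over 162 values recomputed under an alternative, 103 stayed within the counting interval, or within 1.5 times for counts, and 59 moved. A reversal could be scored only for the ratios of the miR-200 family, and 0 reversed. The shares of reads outside genes in the set 1 control and DKO changed order, to 12.1% and 10.7% without reads shared within the lane. They were 8.36% and 7.85% without the 7 miRNA names listed below. The cause was not tested. Pool values are in the order set 1 control, set 1 DKO, set 2 control, set 2 DKO, set 2 induced.

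The share of reads outside genes was 6.26%, 7.44%, 3.31%, 2.85% and 2.86% at least 5 kb from every gene, 7.21%, 8.3%, 5.19%, 5.06% and 4.81% with each combination counted once, 17.4%, 18.5%, 8.46%, 8.18% and 7.84% with genes of the same strand only, where genes of unknown strand count on both, 8.36%, 7.85%, 6.38%, 6.15% and 5.88% without 7 miRNA names (miR-1195, miR-7667-5p, miR-706, miR-709, miR-3473b, miR-3470b and miR-3470a), 12.1%, 10.7%, 6.24%, 5.9% and 5.85% without reads shared within the lane, and 8.41%, 9.14%, 4.88%, 4.68% and 4.58% without the 10 fullest bins. Without marked read names, chosen after seeing the data, the set 1 control stood at 13.4%. The report's values without a single named bin, and the family ratios within genes without shared reads, were also chosen after seeing the data.

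The family ratio of the set 2 DKO was 0.0054 without reads shared within the lane, and the other family ratios outside genes stayed within their intervals. Crowded bins numbered 85 at least 5 kb from genes. They held 54.4% of reads with bins of 1000 bases, 21.1% with combinations counted once, 51% with genes of the same strand, 44.8% without the 7 names, 44.5% without shared reads and 28.2% without the 10 fullest bins. The share of reads after the 3′ end on the same strand, 54.6%, was 62.1% with combinations counted once, 62.8% without the 7 names, 58.1% without shared reads and 59.3% without the 10 fullest bins; at least 5 kb from genes it has no value.

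The 5 miRNAs higher outside genes became 2 at least 5 kb from genes, 8 with combinations counted once and 3 without the 10 fullest bins, and 1 miRNA was lower with genes of the same strand and 1 with no base over a gene. Higher in the set 1 DKO, 22 miRNAs, were 10 at 5 kb, 12 by combinations, 34 without shared reads and 8 with a minimum of 50 reads, with 4 lower at that minimum. Higher in the set 2 DKO, 17 miRNAs, were 10 at 5 kb and 9 at a minimum of 50. Lower on induction, 3 miRNAs, were 1 by combinations, with genes of the same strand, at a minimum of 50 and without the 10 fullest bins.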
